A study of Mus musculus with 12 samples.

Results

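The matricellular proteins and fibronectin were examined as a set of 10 genes in MEF cells, fibroblasts isolated from mouse embryos: Fn1, Fbln1, Thbs1, Thbs2, Tnc, Postn, Sparc, Spp1, Ctgf (now Ccn2) and Cyr61 (now Ccn1). They were chosen by name for their function, with earlier results of these data known, and found by their exact symbol. Comparisons of the set with all genes are therefore descriptions. All 10 were listed in both deposited tables, which hold 43280 entries for the IDH2 mutant experiment and 23930 for the 2-HG experiment, and all 10 passed the filter on low values in both.

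Matricellular proteins are secreted into the extracellular matrix, where they adjust how cells attach, migrate and receive growth factor signals rather than forming the main scaffold. Fibronectin is a fibrillar glycoprotein that cells assemble through integrins and to which several matricellular proteins bind. Fibroblasts are a major source of these proteins, and several of the genes respond to TGF-beta or to YAP and TAZ, the co-activators of the TEAD transcription factors.

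The study used RNA-seq to ask which transcripts change with mutant IDH2 and with 2-HG, the metabolite that the mutant enzyme makes from alpha-ketoglutarate. All cells were MEF from C57BL/6 embryos at embryonic day 13.5, immortalized by serial passage without an added oncogene. 2MUT cells stably expressed FLAG-tagged mutant human IDH2 from a puromycin-selected retroviral vector and Control cells carried the empty vector, both without further treatment. Whether each line was a pool or a clone was not given in the sources used here, so the effect of the transgene and that of a line cannot be told apart. 2-HG(+) cells received 300 μM of membrane-permeant (octyl) 2-HG for 24 h, and the 2-HG(-) cells are labelled as given the solvent DMSO for 24 h, whereas the text of the study calls them non-treated. Each of the 4 groups had 3 libraries. The study states triplicates, but nothing says that they came from separate cultures, so p-values measure the spread between these libraries, which may be technical.

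Libraries were made with an AmpliSeq kit, in which 1 short target of each transcript is amplified, so that a level in RPM (reads on a gene, scaled to 1000000 reads counted) is compared between groups for a given gene and not between genes. Depth was 6472439 to 7313602 reads in the IDH2 mutant experiment and 14959318 to 18363768 in the 2-HG experiment, and 3 reads corresponded to at most 0.464 and 0.201 RPM. Fibroblast markers were abundant, although Lum was under 1 RPM in all groups but Control, and their sum over 8 genes was lower in both changed groups, at 7881 to 8491 RPM in 2MUT against 11459 to 12550 RPM in Control, and at 13547 to 14771 RPM in 2-HG(+) against 19738 to 21276 RPM in 2-HG(-). Of the 7 fibroblast markers tested, 6 were lower and 0 higher in 2MUT, and 4 were lower and 1 (Thy1) higher with 2-HG, where 17.3% and 16.7% of all genes tested were lower (limma, adjusted p under 0.05). Epithelial markers summed to at most 1.61 RPM, with Epcam and Krt18 at 0, and endothelial markers to at most 2.94 RPM. The muscle factor Myod1 was at 0 in every library and Myog at or near 0, and leukocyte markers summed to 8.26 to 14.7 RPM, mostly from Cd68, with Ptprc at or near 0. Of these, Lyz2 rose in 2MUT, from 0.56 ± 0.361 to 2.62 ± 0.141 RPM (SD, n = 3), and Csf1r libraries did not overlap there (means of 0.19 and 1.28 RPM, not tested), while Cd68 fell with 2-HG, from 12.4 ± 1.25 to 8.46 ± 1.01 RPM. The part of these marker shifts in the results that follow was not tested, and in these bulk samples fewer expressing cells and less RNA per cell cannot be told apart. Whether reads of the human transgene were counted on mouse Idh2 was not tested. Idh2 was lower in 2MUT than in Control, with means of 49.6 ± 6.39 and 77.3 ± 5.54 RPM (SD, n = 3), and higher in 2-HG(+) than in 2-HG(-), with means of 238 ± 19.2 and 177 ± 14.3 RPM.

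Expression of mutant IDH2 was accompanied by changes of the set in both directions, while 2-HG was accompanied by falls alone. In 2MUT, 9 of the 10 genes passed the test, with 5 higher (Fn1, Thbs1, Sparc, Ctgf and Cyr61) and 4 lower (Fbln1, Thbs2, Postn and Spp1), whereas 33.8% of all 11065 genes tested passed, 16.5% higher and 17.3% lower (limma, Benjamini-Hochberg adjusted p under 0.05). With 2-HG, 7 of 10 passed and all 7 were lower (Fbln1, Thbs1, Thbs2, Postn, Sparc, Spp1 and Cyr61), against 32.8% of 10384 genes, 16.1% higher and 16.7% lower. Since the set was chosen with earlier results of these data known, these counts describe it and do not test it. None of the 10 was higher with 2-HG by limma, edgeR or DESeq2, and the number higher at an unadjusted p under 0.05 was also 0 in each. The median log2 fold change of the 10 genes was 0.039 in 2MUT, beside 0.0081 over all genes tested, and -0.56 with 2-HG, beside -0.021. Libraries of the groups did not overlap for 10 of 10 genes in 2MUT, against 47.5% of all genes, and for 7 of 10 with 2-HG, against 46.3%. Fold changes are given as differences of mean log2(RPM + 1), a scale on which changes at low levels come out too small.

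**Figure D1:**
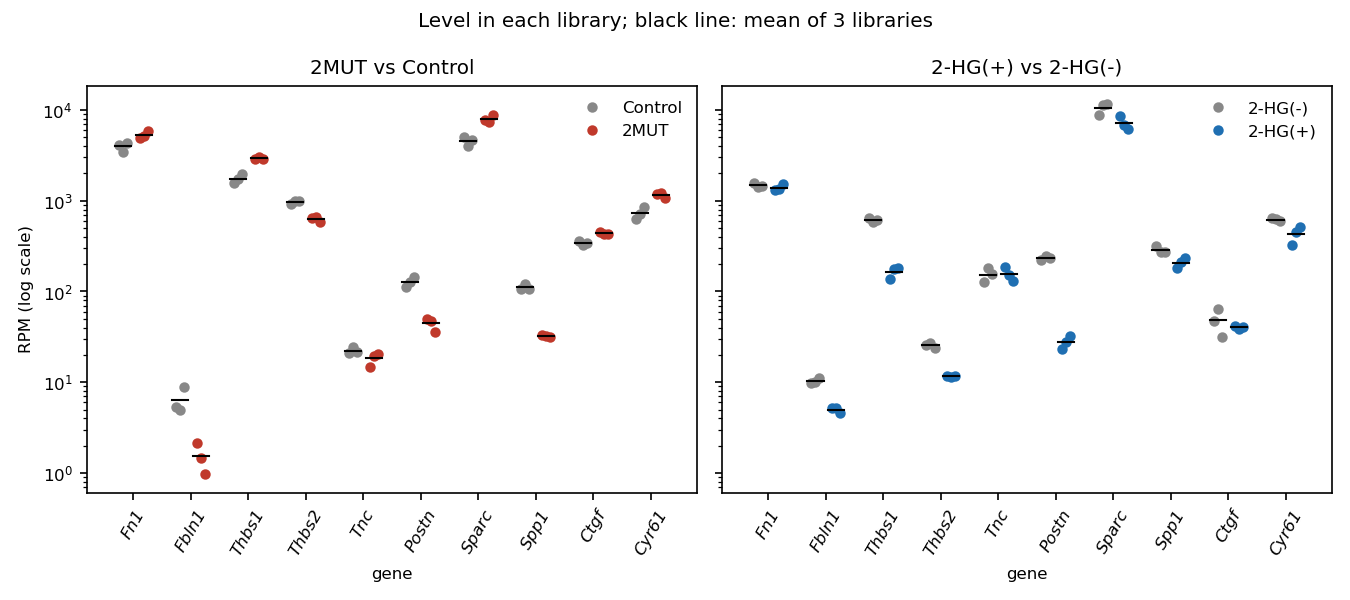
Level of each of the 10 genes in every library, in RPM on a log scale, for the IDH2 mutant experiment (left, Control in grey and 2MUT in red) and the 2-HG experiment (right, 2-HG(-) in grey and 2-HG(+) in blue). Points are libraries and black lines the mean of 3, and Postn fell from a mean of 233 to 27.9 RPM with 2-HG while Tnc stayed within overlapping ranges of 126 to 181 and 129.5 to 186 RPM.

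Promoter sequences are shown for Postn, Sparc and Cyr61, since Postn fell the most of the set with 2-HG and the other two moved in opposite directions in the experiments. The windows run from 250 bases before to 50 bases after the gene's start in RefSeq on GRCm38.p6, and 7 of the 10 genes were matched in that table. Fn1, Thbs1 and Ctgf were not matched, so Thbs1, which also moved in opposite directions, has no window here. For Sparc that start lies inside the gene's span in GENCODE M21, whose annotation reaches further upstream. Capitals mark TATAAA, the core of the TATA box, and GGAATG, a sequence that TEAD factors recognise, on either strand (TTTATA and CATTCC when read on the other strand). Both motifs were chosen after the sequences had been read.
Postn, chr3:54360857-54361156, plus strand: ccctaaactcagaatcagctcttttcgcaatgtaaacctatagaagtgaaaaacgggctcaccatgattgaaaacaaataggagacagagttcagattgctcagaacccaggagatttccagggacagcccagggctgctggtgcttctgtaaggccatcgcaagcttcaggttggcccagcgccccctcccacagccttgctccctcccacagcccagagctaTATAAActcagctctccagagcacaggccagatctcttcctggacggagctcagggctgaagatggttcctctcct
Sparc, chr11:55420031-55420330, minus strand: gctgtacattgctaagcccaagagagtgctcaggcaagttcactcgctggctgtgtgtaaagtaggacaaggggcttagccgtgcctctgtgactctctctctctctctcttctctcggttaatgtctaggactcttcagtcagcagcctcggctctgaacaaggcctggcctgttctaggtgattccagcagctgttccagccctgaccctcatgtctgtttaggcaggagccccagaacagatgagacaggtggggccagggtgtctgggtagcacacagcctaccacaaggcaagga
Cyr61, chr3:145649936-145650235, minus strand: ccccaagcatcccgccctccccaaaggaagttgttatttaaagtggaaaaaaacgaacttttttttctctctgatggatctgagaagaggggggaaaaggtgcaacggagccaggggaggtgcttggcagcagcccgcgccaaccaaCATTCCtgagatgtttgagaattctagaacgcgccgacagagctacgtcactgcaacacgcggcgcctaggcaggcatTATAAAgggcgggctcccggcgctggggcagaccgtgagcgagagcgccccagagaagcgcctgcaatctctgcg
Postn has TATAAA from 26 to 21 bases before its start, and Cyr61 from 25 to 20 bases before, with CATTCC from 103 to 98 bases before. The Sparc window holds neither motif. A TATAAA that begins 35 to 20 bases before the start, on the strand of the gene, was found in 2 of the 7 matched genes and in 1.84% of all 32851 windows. Anywhere in the window and on either strand, TATAAA was found in 5 of the 7 and in 13.6% of all windows, and GGAATG in 1 of the 7 and in 14.7%. These matches describe the letters of the windows and are not evidence of binding.

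Fn1 (chr1:71585520-71653200 on GRCm38, minus strand) encodes fibronectin. Its levels were 4146, 3426 and 4329 RPM in Control and 4863, 5210.2 and 5913 RPM in 2MUT, so that every 2MUT library was above every Control library. The mean rose from 3967 ± 478 to 5329 ± 535 RPM (SD, n = 3), or by 0.43 on the log2 scale with a standard error of 0.11 (limma, adjusted p = 0.011). This call rests on the third 2MUT library, since the adjusted p was 0.053 and the change 0.35 without it, and it was also lost with no filter (limma, adjusted p = 0.066), without a mean-variance trend (0.055) and with an unmoderated test (0.099). With 2-HG, Fn1 did not pass. Its levels were 1562, 1417 and 1442 RPM in 2-HG(-) and 1309.7, 1348 and 1519.7 RPM in 2-HG(+), and the ranges overlapped. The log2 fold change was -0.083, with a 95% interval of -0.32 to 0.15 (limma, adjusted p = 0.57).

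Fbln1 (chr15:85205949-85286535, plus strand) encodes fibulin-1, a glycoprotein that binds fibronectin and basement membrane proteins. It was covered by few reads. It was at 5.33, 4.99 and 8.89 RPM in Control and at 2.16, 1.46 and 0.963 RPM in 2MUT, which correspond to 36, 35 and 65 reads against 14, 10 and 7. Each 2MUT library was below each Control library, and the log2 fold change was -1.54 with a standard error of 0.27 (limma, adjusted p = 0.0014). Treatment with 2-HG was also accompanied by a lower level, 5.22, 5.17 and 4.57 RPM in 2-HG(+) against 9.69, 9.96 and 11.0 RPM in 2-HG(-). The ranges did not overlap, and the log2 fold change was -0.90 with a standard error of 0.13 (limma, adjusted p = 0.00078). Thus fibronectin and fibulin-1 moved in opposite directions in 2MUT, and only the latter passed with 2-HG.

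The thrombospondins parted in 2MUT and fell together with 2-HG. Thbs1 (chr2:118111876-118127133, plus strand) encodes thrombospondin-1, which activates latent TGF-beta and inhibits angiogenesis. It was at 1582, 1721 and 1962 RPM in Control and at 2893, 3042 and 2871 RPM in 2MUT, with no overlap. The mean rose from 1755 ± 192 to 2935 ± 93.3 RPM (SD, n = 3), or by 0.75 on the log2 scale with a standard error of 0.094 (limma, adjusted p = 0.00016). With 2-HG, its level went the other way, from 639, 583 and 612 RPM to 137, 176 and 181 RPM. All 3 treated libraries were far below the 2-HG(-) libraries, and the mean fell from 611 ± 28.2 to 164 ± 24.3 RPM (SD, n = 3). The log2 fold change was -1.90 with a standard error of 0.12 (limma, adjusted p = 5.8e-06), and Thbs1 ranked 69th among the falls of that comparison.

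Thbs2 (chr17:14665500-14694235, minus strand) encodes thrombospondin-2, which also restrains angiogenesis and affects collagen fibril assembly. It was at 911, 994 and 1004 RPM in Control and at 647, 660.3 and 589 RPM in 2MUT. Each 2MUT library was below the Control range, and the log2 fold change was -0.62 with a standard error of 0.087 (limma, adjusted p = 0.00033). In 2-HG(-) it was at 25.8, 27.1 and 23.7 RPM, and in 2-HG(+) at 11.8, 11.4 and 11.8 RPM. The treated libraries were close to one another and below all untreated ones, with a log2 fold change of -1.07 and a standard error of 0.12 (limma, adjusted p = 0.00014). Thbs2 and Postn stand in the study's own list of genes changed in both experiments, which was drawn from these libraries, so their common fall here is not independent evidence of that direction.

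Tnc (chr4:63959785-64047015, minus strand) encodes tenascin-C, an anti-adhesive glycoprotein of developing and injured tissue, and it passed the test in neither experiment. It was at 20.9, 24.6 and 21.3 RPM in Control and at 14.8, 19.5 and 20.6 RPM in 2MUT. The 2MUT libraries were all below Control, narrowly, and the log2 fold change was -0.28 with a 95% interval of -0.64 to 0.084 (limma, adjusted p = 0.22), or -0.14 without the first 2MUT library. With 2-HG the levels of 186, 154 and 129.5 RPM overlapped those of 2-HG(-), 126, 181 and 154 RPM. The log2 fold change was 0.025 with a 95% interval of -0.33 to 0.38 (limma, adjusted p = 0.92), and its sign turned when the first library of either group was left out, to -0.11 in each case, and with quantile normalization, to -0.023.

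Postn (chr3:54361109-54391037, plus strand) encodes periostin, which binds integrins and promotes collagen crosslinking, and it was the member with the largest fall under 2-HG. Control libraries were at 111, 128 and 143 RPM and 2MUT libraries at 49.7, 47.9 and 35.9 RPM. They did not overlap, and the log2 fold change was -1.50 with a standard error of 0.15 (limma, adjusted p = 3e-05). In the other experiment the levels were 221, 243 and 233 RPM in 2-HG(-) and 23.4, 27.7 and 32.5 RPM in 2-HG(+). The mean fell from 233 ± 10.9 to 27.9 ± 4.54 RPM (SD, n = 3), and the log2 fold change was -3.03 with a standard error of 0.12 (limma, adjusted p = 6e-07). Among 10384 genes tested, this was the 12th largest fall, and 0.144% of genes changed by as much or more in either direction.

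Sparc (chr11:55394500-55423183, minus strand) encodes osteonectin, a collagen-binding protein that loosens cell adhesion. It was at 5039, 4045 and 4680.2 RPM in Control and at 7800.5, 7462 and 8767 RPM in 2MUT, without overlap. The log2 fold change was 0.81 with a standard error of 0.10 (limma, adjusted p = 0.00017). In 2-HG(-) it was at 8929, 11434 and 11512 RPM, and in 2-HG(+) at 8604, 6776 and 6159 RPM. The treated libraries were below the untreated ones, but the highest of the former lay near the lowest of the latter. The log2 fold change was -0.57 with a standard error of 0.17 (limma, adjusted p = 0.027). This fall is the least secure call of the set. Its adjusted p was 0.065 and 0.11 without the second or the third 2-HG(-) library, 0.075 and 0.084 without the second or the third 2-HG(+) library, 0.19 with no filter and 0.061 after median-of-ratios scaling (limma). After quantile normalization the change was -0.17 (limma, adjusted p = 0.41).

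Spp1 (chr5:104435118-104441050, plus strand) encodes osteopontin, a secreted ligand of integrins and of CD44. It was at 106, 122 and 106 RPM in Control and at 33.1, 32.1 and 31.8 RPM in 2MUT. The 2MUT libraries lay within a narrow band well below Control, and the log2 fold change was -1.75 with a standard error of 0.11 (limma, adjusted p = 1.5e-06). With 2-HG, the levels were 183, 212 and 231 RPM against 316, 271 and 270.1 RPM in 2-HG(-). The ranges did not overlap, and the log2 fold change was -0.45 with a standard error of 0.11 (limma, adjusted p = 0.014). Without the first 2-HG(-) library, which was the highest, the change was -0.38 (limma, adjusted p = 0.051).

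The CCN proteins, encoded by Ctgf and Cyr61, are secreted integrin ligands whose genes are known targets of YAP and TEAD. Ctgf (chr10:24595442-24598683, plus strand) was at 360, 328 and 342 RPM in Control and at 458, 435 and 427 RPM in 2MUT. All 2MUT libraries were above Control, and the log2 fold change was 0.36 with a standard error of 0.086 (limma, adjusted p = 0.0079). With 2-HG, Ctgf did not pass. It was at 47.6, 64.5 and 31.8 RPM in 2-HG(-), a wide spread that enclosed the 41.8, 38.9 and 40.6 RPM of 2-HG(+). The log2 fold change was -0.18 with a 95% interval of -0.66 to 0.29 (limma, adjusted p = 0.54), and it was 0.055 without the second 2-HG(-) library.

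Cyr61 (chr3:145646976-145649981, minus strand), whose promoter is printed above, was at 625, 723 and 856 RPM in Control and at 1183, 1209.9 and 1081 RPM in 2MUT. There was no overlap, and the log2 fold change was 0.67 with a standard error of 0.11 (limma, adjusted p = 0.0011). In 2-HG(-) it was at 638, 624 and 601 RPM, and in 2-HG(+) at 328, 457 and 508 RPM. The treated libraries were lower and more scattered, and the log2 fold change was -0.55 with a standard error of 0.15 (limma, adjusted p = 0.02). The adjusted p of this fall was 0.057 without the first (-0.53) and 0.054 without the third 2-HG(-) library (-0.57), and 0.13 with an unmoderated test (limma for the first 2). Without the first 2-HG(+) library, the lowest, the change was -0.36 and still passed (limma, adjusted p = 0.025).

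**Figure D2:**
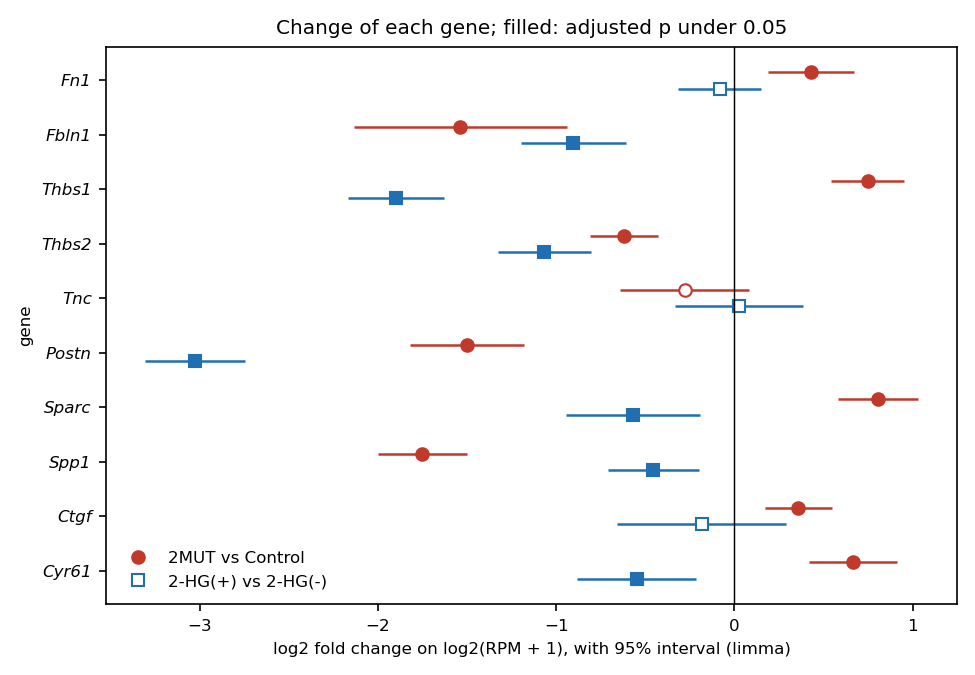
Log2 fold change of each gene on the log2(RPM + 1) scale with its 95% interval from limma, in 2MUT against Control (red circles) and in 2-HG(+) against 2-HG(-) (blue squares), each from 3 libraries a group. Filled symbols passed at an adjusted p under 0.05, and the intervals of Thbs1, Sparc and Cyr61 lie on opposite sides of 0 in the experiments.

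Set side by side, the experiments divided the set into a group lower in both, a group with opposite changes and a remainder. Fbln1, Thbs2, Postn and Spp1 were lower in both, which holds for 4 of 10 genes here and for 3.07% of the 9610 genes tested in both. Thbs1, Sparc and Cyr61 were higher in 2MUT and lower with 2-HG, 3 of 10 genes against 4.19% of all. Ctgf and Fn1 passed in 2MUT alone, as higher, and Tnc in neither. No member was higher in both (1.5% of all genes) or lower in 2MUT and higher with 2-HG (5.18%).

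The difference between the changes was tested over the 12 libraries as the 2MUT change minus the 2-HG change, each taken within its own table. It passed for 7 of 10 genes, 6 with a higher and 1 with a lower 2MUT change, against 39.4% of all genes tested in both, 19.9% higher and 19.5% lower. For Thbs1 the difference was 2.64 on the log2 scale with a standard error of 0.16 (limma, adjusted p = 5.6e-08), for Sparc 1.38 ± 0.20 (0.00014) and for Cyr61 1.21 ± 0.21 (0.00043), where the value after ± is the standard error. Quantile normalization reduced that of Sparc to 0.82. Genes lower in both differed in size. Postn fell more with 2-HG, with a difference of 1.53 (limma, adjusted p = 6.2e-05), as did Thbs2 with 0.45 (0.013), whereas Spp1 fell more in 2MUT, with a difference of -1.30 (1.9e-05). Fn1 gave 0.51 (limma, adjusted p = 0.02), and it no longer passed without the third 2MUT library (0.43, adjusted p = 0.055) or with quantile normalization (0.43, 0.05). For Fbln1 the difference was -0.63 with a 95% interval of -1.28 to 0.01 (limma, adjusted p = 0.11). It passed with edgeR (-1.02, adjusted p = 0.047), with DESeq2 (-1.02, 0.036) and without the first 2MUT library (limma, -0.81, 0.046). But it was -0.40 without the third Control library (limma, adjusted p = 0.25) and -0.46 without the third 2MUT library. For Ctgf it was 0.54 with an interval of 0.0048 to 1.08 (limma, adjusted p = 0.1), and it passed with DESeq2 (adjusted p = 0.047) and without the third 2-HG(-) library (limma, 0.80, 0.0027), but was 0.30 without the second (limma, adjusted p = 0.22). For Tnc it was -0.30 with an interval of -0.81 to 0.20 (limma, adjusted p = 0.33). Hence the passing of Ctgf in 2MUT alone is not shown to be a difference between the experiments by limma.

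**Figure D3:**
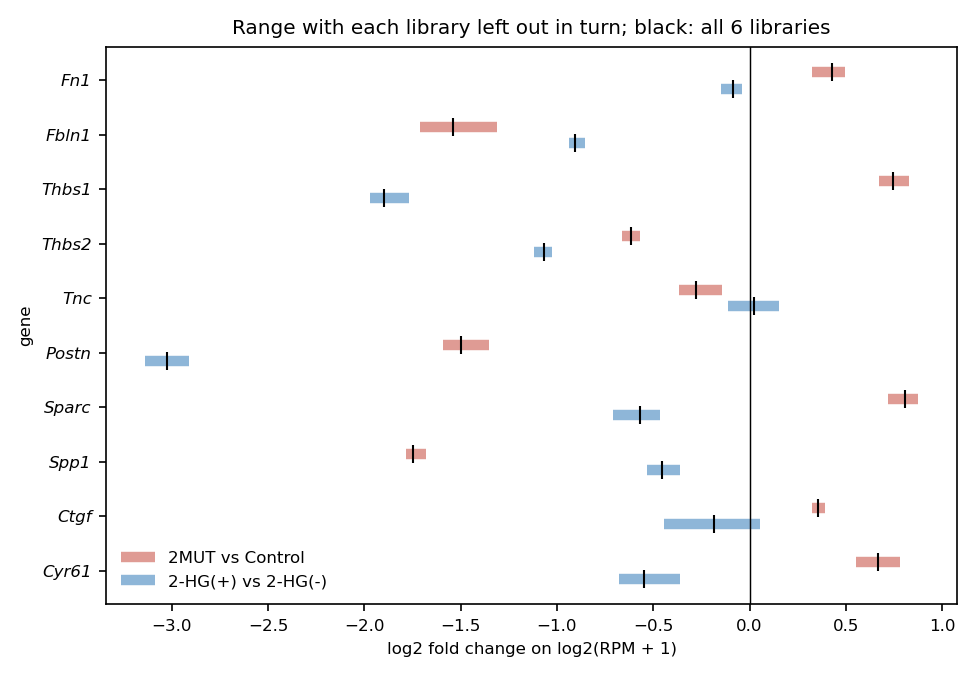
Range of the log2 fold change of each gene, on the log2(RPM + 1) scale, when each of the 6 libraries of a comparison was left out in turn (red bars, 2MUT against Control; blue bars, 2-HG(+) against 2-HG(-)), with the value from all 6 libraries as a black mark. Bars cross 0 for Tnc (-0.11 to 0.15) and Ctgf (-0.45 to 0.055) with 2-HG and for no gene in 2MUT.

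Paralogs of the members were examined by families chosen by name. Among the other CCN genes, 3 of 4 were tested, and 1 was higher and 0 lower in 2MUT, while 1 was higher and 2 were lower with 2-HG, beside 16.5% higher and 17.3% lower of all genes in 2MUT and 16.1% and 16.7% with 2-HG. Wisp1, a target of Wnt signalling, rose in both, by 1.03 in 2MUT (limma, adjusted p = 0.00015) and 0.63 with 2-HG (0.016). Wisp2 fell by 1.89 with 2-HG (limma, adjusted p = 8.2e-06), from 47.7 ± 4.19 to 12.1 ± 1.39 RPM (SD, n = 3), and was 0.059 in 2MUT (0.79). Nov fell by 0.64 with 2-HG (limma, adjusted p = 0.012).

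Of the other thrombospondins only Thbs3 was tested, and it fell by 1.08 in 2MUT (limma, adjusted p = 0.0002) and was -0.57 with 2-HG (0.11). Tnn, encoding tenascin-W, fell by 0.39 in 2MUT (limma, adjusted p = 0.035) and by 1.24 with 2-HG (0.00044), and Tnxb passed in neither. Fstl1, a secreted glycoprotein related to SPARC, rose by 0.64 in 2MUT (limma, adjusted p = 0.00024) and fell by 0.57 with 2-HG (0.0071), so its values stood beside those of Sparc. Of 7 other SPARC family genes, only 2 were tested in 2MUT and 1 with 2-HG, and Fstl1 alone passed. Over all genes, 16.5% were higher in 2MUT and 16.7% lower with 2-HG. Tgfbi, the paralog of Postn, fell by 1.70 in 2MUT (limma, adjusted p = 7.3e-06) and by 0.29 with 2-HG (0.041). Its larger fall was thus in 2MUT, with a difference of -1.41 (limma, adjusted p = 3.5e-06), whereas that of Postn was with 2-HG.

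For the other fibulins, 5 of 6 were tested in 2MUT, where 2 rose and 1 fell (16.5% and 17.3% of all genes), and 4 were tested with 2-HG, where all 4 fell, against 16.7% of all genes. Fbln5, needed for elastic fibre assembly, rose by 1.18 in 2MUT (limma, adjusted p = 1.3e-05) and fell by 0.47 with 2-HG (0.0036). Fbln2 rose by 0.49 in 2MUT (limma, adjusted p = 0.0014) and fell by 0.54 with 2-HG (0.0017). Efemp1, encoding fibulin-3, fell by 0.34 in 2MUT (limma, adjusted p = 0.037) and fell by 1.13 with 2-HG (0.00023). With 2-HG their median was -0.50, beside -0.021 over all genes.

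Receptors of these proteins showed no single direction in 2MUT. Of 17 receptor genes, 11 were tested there, with 4 higher and 1 lower and a median of 0.055, and 12 were tested with 2-HG, with 1 higher and 6 lower and a median of -0.31. Over all genes 16.5% were higher and 17.3% lower in 2MUT, and 16.1% and 16.7% with 2-HG. The largest changes that passed were with 2-HG, in Stab1, a scavenger receptor for SPARC (1.34, limma, adjusted p = 8.4e-05), in Itga8, an integrin subunit for osteopontin and fibronectin (-1.14, 0.021), and in Itgb8 (-1.12, 0.0011). Stab1 was low, at 4.51 ± 0.469 RPM (SD, n = 3) in 2-HG(-) and 12.9 ± 0.734 RPM in 2-HG(+). Itga8 was lower still, at 3.49 ± 1.67 and 1.03 ± 0.669 RPM, and was not tested in 2MUT. Further receptors were singled out after their values were seen, for the members they bind. Cd47, a receptor of thrombospondin-1, changed in the directions of Thbs1, with 0.63 in 2MUT (limma, adjusted p = 0.0036) and -0.51 with 2-HG (0.025). That pattern was not particular to Cd47. Itga3 was 0.58 in 2MUT (limma, adjusted p = 0.0058) and -0.34 with 2-HG (0.028), and Sdc4 0.25 (0.039) and -0.33 (0.038). Lrp1 was -0.19 in 2MUT (limma, adjusted p = 0.24) and -0.67 with 2-HG (0.0037). Cd44, a receptor of osteopontin, was -0.79 in 2MUT (limma, adjusted p = 7.4e-05) and 0.24 with 2-HG (0.12). For the fibronectin receptor, the subunit Itga5 passed in neither, at -0.058 (limma, adjusted p = 0.71) and 0.096 (0.66), while Itgb1 was 0.80 in 2MUT (0.00066) and -0.23 with 2-HG (0.24).

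**Figure D4:**
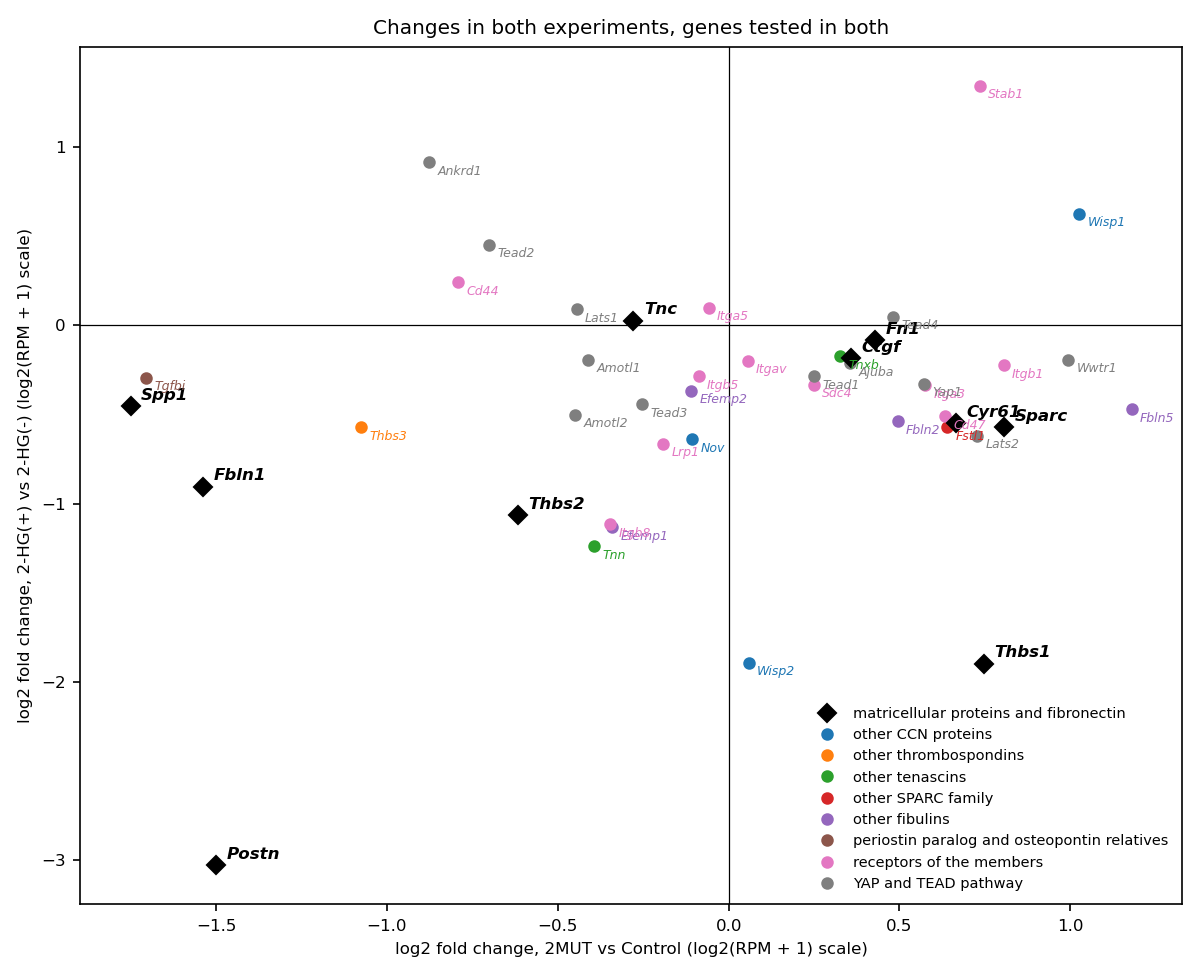
Log2 fold change in 2MUT against Control (x axis) and in 2-HG(+) against 2-HG(-) (y axis), both on the log2(RPM + 1) scale, for the 10 genes (black diamonds) and for related genes tested in both experiments (coloured points, by list). Postn lies lowest at -3.03 with 2-HG, Thbs1 is at 0.75 and -1.90, and none of the 10 lies at the upper right. Wisp1, Stab1 and Tead4 lie there, of which Wisp1 alone passed as higher in both. Errors are not drawn.

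Because Ctgf and Cyr61 are known targets of YAP and TEAD, 12 genes of that pathway were examined. All 12 were tested, and 4 were higher and 5 lower in 2MUT (median -0.0016), while 2 were higher and 4 lower with 2-HG (median -0.20), where 33.8% and 32.8% of all genes passed in either direction. Wwtr1, encoding TAZ, rose by 0.99 in 2MUT (limma, adjusted p = 0.00023) and was -0.19 with 2-HG (0.46). Ankrd1, a target like Ctgf and Cyr61, fell by 0.88 in 2MUT (limma, adjusted p = 5.4e-05) and rose by 0.91 with 2-HG (0.00086). Lats2, a kinase that restrains YAP, rose by 0.73 in 2MUT (limma, adjusted p = 0.00075) and fell by 0.62 with 2-HG (0.0042). The other genes that passed in either experiment are given in full, a choice made after their values were seen. Yap1 was 0.57 in 2MUT (limma, adjusted p = 0.0013) and -0.33 with 2-HG (0.03), and Ajuba 0.36 (0.03) and -0.21 (0.093). Tead2 was -0.70 in 2MUT (limma, adjusted p = 0.00021) and 0.45 with 2-HG (0.0039), and Lats1 -0.44 (0.024) and 0.089 (0.52). Amotl1 was -0.41 in 2MUT (limma, adjusted p = 0.016) and -0.19 with 2-HG (0.18), Amotl2 -0.45 (0.0083) and -0.50 (0.0031), and Tead3 -0.25 (0.11) and -0.44 (0.031).

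Genes responsive to TGF-beta were examined for the same reason. Of 8 such genes 7 were tested, with 2 higher and 2 lower in 2MUT (median 0.16) and 2 higher and 4 lower with 2-HG (median -0.29), against the same shares of all genes. Acta2, encoding smooth muscle actin, fell by 1.93 in 2MUT (limma, adjusted p = 5.4e-07) and by 0.95 with 2-HG (6e-05). Ltbp2, encoding a matrix protein related to latent TGF-beta binding proteins, fell by 2.14 with 2-HG (limma, adjusted p = 0.00029) and was -0.085 in 2MUT (0.57).

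The genes whose pattern was most like that of each member were sought for the 7 members that passed in both experiments, by Pearson's r of log2(RPM + 1) over the 12 libraries after the mean of each experiment was subtracted. These values describe mostly the differences between 4 groups and share libraries and depth. Thbs2 and Postn were near each other, with r = 0.991 between them. Thbs1 was nearest to P4ha3, a collagen prolyl hydroxylase (0.991), Esr1 (0.987) and Nrp2 (0.986). For Sparc these were Ttc17 (0.970), Col4a1, a basement membrane collagen (0.968), and F730043M19Rik (0.937). Spp1 had S1pr3 (0.988), Tgfbi (0.987) and H1f0 (0.983), and Cyr61 had Sesn3 (0.972), Kremen1 (0.968) and Timp3, a metalloproteinase inhibitor (0.962). Fbln1 was nearest to Stom and Egr1 (both 0.954) and Aldh6a1 (0.948), and Serpina3g was near Thbs2 (0.991) and Zbp1 near Postn (0.993).

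The reference groups of the experiments differed for some members, which is given as a description since the tables list different entries and were normalized separately. Thbs2 was at 969 ± 50.7 RPM in Control and 25.5 ± 1.72 RPM in 2-HG(-), and Ctgf at 343 ± 15.9 and 48.0 ± 16.4 RPM (SD, n = 3). Tnc was at 22.3 ± 2.06 RPM in Control and 154 ± 27.4 RPM in 2-HG(-). Cyr61 was closer, at 735 ± 116 and 621 ± 18.7 RPM. For Thbs2, the order from high to low was Control, 2MUT, 2-HG(-) and 2-HG(+), with no overlap between neighbours, whereas for Tnc the 2-HG(-) and 2-HG(+) libraries overlapped at the top of the order.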

How the data were processed

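RNA-seq of 12 AmpliSeq libraries, 3 in each of 4 groups, was used. The authors aligned reads with TMAP to the AmpliSeq mouse transcriptome reference, obtained reads per gene from the AmpliSeqRNA plug-in, and deposited RPM, 1 table for each experiment. The genome build behind that reference is not given in the sources used here. Columns were assigned by the sample numbers in the labels, and 0 columns were left without a sample. Dividing by the step between low values gave whole reads for 100% of entries (within 0.02 reads) and with them each library's depth.

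Tests used limma 3.58.1 in R 4.3.3 with a mean-variance trend on log2(RPM + 1), two-sided. Genes entered when they averaged 1 RPM or more over the 6 libraries compared, and Benjamini-Hochberg adjustment over all of them was used with a threshold of 0.05. The study used a per-gene test without moderation and the same adjustment. The filter, the value added before the logarithm and the test could each change a call, so these were varied, as were normalization, a count test on recovered reads (edgeR 4.0.16 and DESeq2 1.42.0), a replicate block and the set of libraries, each being left out once. The scripts were tested on simulated data.

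The 10 members were all named. Of each other list, up to 3 genes with the largest change among those that passed were named, and others are marked as chosen after their values were seen. Likeness names the 3 nearest genes, of which some are not reported here. The members and lists were chosen with earlier results of these data known. Gene positions come from GENCODE M21 on GRCm38, and promoters from RefSeq on GRCm38.p6. The positions of the amplified targets, the quantitative PCR and the protein measurements were not used here.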

Additional observations from a re-analysis of the deposited data

Results flagged for a closer look

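For 7 of the 10 genes the 2MUT change and the 2-HG change differed by limma's test of the difference over the 12 libraries (adjusted p under 0.05), which was passed by 39.4% of all genes tested in both. On the log2 scale, and as the 2MUT change minus the 2-HG change, the differences were 2.64 for Thbs1, 1.53 for Postn, 1.38 for Sparc, 1.21 for Cyr61, 0.51 for Fn1, 0.45 for Thbs2 and -1.30 for Spp1. For Thbs1, Sparc and Cyr61 the changes had opposite signs, for Postn, Thbs2 and Spp1 both were falls of unequal size, and for Fn1 a rise in 2MUT stood beside a change of -0.083 with 2-HG. The experiments also differed in duration of exposure, vector and depth, and these cannot be told apart from the agent.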

How the results depend on the processing

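Over the 10 genes and 11 other settings, 106 of 109 values in 2MUT kept their direction and their side of the threshold, 100 of 109 with 2-HG and 105 of 109 for the difference of the changes. The filter of 10 RPM left no value for Fbln1. With 2-HG, the unmoderated test left 4 of the 7 lower genes (Sparc, Spp1 and Cyr61 no longer passed). For the difference, edgeR and DESeq2 each gave 2 genes with a lower 2MUT change in place of 1. Quantile normalization turned the 2-HG change of Fn1 to 0.012 and that of Tnc to -0.023. With each library left out in turn, 4 to 5 genes were higher and 4 to 4 lower in 2MUT, 0 to 0 higher and 5 to 7 lower with 2-HG, and for the difference 5 to 7 had a higher and 1 to 2 a lower 2MUT change. The 2-HG change of Tnc ranged from -0.11 (without the first 2-HG(-) or the first 2-HG(+) library) to 0.15, and that of Ctgf from -0.45 to 0.055 (without the second 2-HG(-) library). The cause of these changes was not tested.

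Replicate numbers gave no pairing. Deviations of same-numbered libraries correlated at 0.03 to 0.07 in the IDH2 mutant experiment and at -0.46 to 0.06 in the 2-HG experiment, and not every library correlated best with its own number. With the replicate block, 5 genes were higher and 4 lower in 2MUT, 0 higher and 6 lower with 2-HG (Sparc lost, adjusted p = 0.081, limma), and 6 and 1 for the difference. Over all genes the block gave 1911 higher and 1987 lower in 2MUT, and 1217 and 1286 with 2-HG against 1668 and 1737 without it. Low depth limits Fbln1, with 7 to 65 reads a library in the IDH2 mutant experiment. With 3 libraries a group, the 95% intervals of the 2-HG changes were wide for Tnc (-0.33 to 0.38) and Ctgf (-0.66 to 0.29).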
